A study of Mus musculus with 8 samples.

Results

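Collagen chain genes were described in 8 mouse malignant peripheral nerve sheath tumors, sarcomas of the Schwann cell lineage, profiled by poly-A RNA sequencing. A gene was taken when its symbol had the form Col, a type number, a and a chain number, which gave 44 of the 20943 genes in the table, and all 44 were among the 20807 genes tested. The 3 PRC2 loss tumors came from mice carrying Plp-CreERT, a Cre recombinase that tamoxifen switches on and that the Plp promoter drives in Schwann lineage cells, with floxed Nf1, floxed Cdkn2a and floxed Eed. The 5 PRC2 wildtype tumors came from mice with the same Plp-CreERT, floxed Nf1 and floxed Cdkn2a, so deletion of these tumor suppressor genes was shared by both groups, and all mice were given tamoxifen (0.4 mg) as newborns, on days 0 to 3. Loss tumor 1 was from a right paraspinal nerve, and loss tumors 2 and 3 were from the left and the right sciatic nerve under 1 animal number. Wildtype tumors 1 and 2 shared an animal number, as did wildtype tumors 3 and 4, so there were 2 PRC2 loss and 3 wildtype animal numbers, and the labels name no site for the wildtype tumors. Where tumors with 1 animal number grew in 1 mouse, they were not independent, and p-values over tumors come out too small. Eed, the gene deleted to inactivate Polycomb repressive complex 2 (PRC2), encodes one of its essential subunits, and its log2 values were between 8.76 and 8.96 in loss tumors and between 10.17 and 10.33 in wildtype tumors, a difference of -1.36 (SE 0.115, limma adjusted p = 0.00021).

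Collagens are extracellular proteins in which chains wind into a triple helix. Fibrillar collagens pack into banded fibrils, type IV collagens form the sheet of basement membranes, FACIT collagens decorate fibril surfaces, type VI collagens form beaded filaments, and transmembrane collagens are anchored in the cell membrane. Peripheral nerve is wrapped in layers of these proteins: Schwann cells lie on a basement membrane, and fibrils of types I and III fill the endoneurium and the epineurium. PRC2 methylates histone H3 at lysine 27, a mark found at silenced genes.

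All values are the authors' quantile-normalized log2 gene counts, so they compare a gene between tumors on a relative scale, and depth per tumor is unknown. The normalization gave every tumor the same highest value, 18.764, and Col3a1 held it in 3 tumors, so the values of the most abundant collagens are set by rank. Of the 44 genes, 41 were above 0 in every tumor, and for 27 the mean over tumors reached 8.40, the median over the means of all genes. The collagens also differed within the PRC2 loss group: loss tumor 3 had the lowest value of its group for 34 of the 44 genes, a pattern given in full further down. In bulk tumor RNA, fewer cells of a type and less RNA per cell cannot be told apart.

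The sequences before the starts of 6 genes are shown first, as examples that were picked by hand. Of these genes, 5 rose in PRC2 loss tumors in every alternative they entered, and Col8a1 fell with no overlap between the groups. Col6a5 and Col9a2 also rose in every alternative they entered and had promoter windows, but are not shown. The sequences are from RefSeq on mouse build GRCm38.p6 (mm10), written 5′ to 3′ on the strand of the gene. Capitals mark the motifs GGGCGG (a GC box), CCAAT and TATAAA on either strand. Col4a4 and Col4a3 are transcribed away from each other, and the stretch between their starts held none of these motifs.
Col4a4-Col4a3 gap, chr1:82586850-82586920, plus strand: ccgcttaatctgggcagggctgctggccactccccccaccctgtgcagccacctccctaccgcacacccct
Col13a1 and Col23a1 encode transmembrane collagens. The 250 bases before the RefSeq start of Col13a1 held 1 TATAAA, and those before Col23a1 held 1 GC box.
Col13a1, chr10:61979109-61979358, minus strand: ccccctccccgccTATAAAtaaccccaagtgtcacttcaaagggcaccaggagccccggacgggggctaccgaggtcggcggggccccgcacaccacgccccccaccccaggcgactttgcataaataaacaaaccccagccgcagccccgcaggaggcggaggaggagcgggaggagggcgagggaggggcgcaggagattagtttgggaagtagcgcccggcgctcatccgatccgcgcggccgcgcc
Col23a1, chr11:51289670-51289919, plus strand: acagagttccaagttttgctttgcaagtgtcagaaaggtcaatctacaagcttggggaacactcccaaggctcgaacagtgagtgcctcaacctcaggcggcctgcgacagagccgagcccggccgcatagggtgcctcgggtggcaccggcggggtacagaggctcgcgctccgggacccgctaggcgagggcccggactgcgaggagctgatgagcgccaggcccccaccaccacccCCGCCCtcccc
The 250 bases before the RefSeq start of Col11a2, a fibrillar chain gene, held 2 GC boxes and 1 TATAAA. This RefSeq start lay 299 bases from the GENCODE start of Col11a2. The 250 bases before Col8a1, the network chain gene that fell in PRC2 loss tumors, held 4 GC boxes.
Col11a2, chr17:34038888-34039137, plus strand: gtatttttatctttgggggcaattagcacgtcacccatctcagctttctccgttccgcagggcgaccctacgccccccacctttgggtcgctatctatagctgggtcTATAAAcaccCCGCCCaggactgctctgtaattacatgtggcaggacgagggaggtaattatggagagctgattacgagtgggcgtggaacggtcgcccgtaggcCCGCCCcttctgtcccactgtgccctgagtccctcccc
Col8a1, chr16:57754738-57754987, minus strand: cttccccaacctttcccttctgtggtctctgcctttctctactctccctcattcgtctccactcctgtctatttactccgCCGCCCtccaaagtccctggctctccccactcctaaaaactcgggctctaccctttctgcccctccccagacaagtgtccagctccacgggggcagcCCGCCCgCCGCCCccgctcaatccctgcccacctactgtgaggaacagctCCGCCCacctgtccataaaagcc

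Of the 44 collagen chain genes, 13 were higher and 2 were lower in PRC2 loss tumors than in wildtype tumors, and 29 did not pass the test (limma, Benjamini-Hochberg adjusted p below 0.05 over all 20807 genes). Over all genes tested, 16% were called higher and 19.6% lower, 35.7% in either direction, against 29.5% higher and 4.55% lower among the collagens. The median log2 difference, loss minus wildtype, was 1.04 over the collagens and -0.12 over all genes. Groups did not overlap with loss tumors above for 13 collagens and with loss tumors below for 1, against 16.9% and 21.4% of all genes. The higher genes were spread over the classes: 3 of 11 fibrillar, 2 of 6 basement membrane, 3 of 9 FACIT, 1 of 6 beaded filament, 3 of 4 transmembrane and 1 of the 3 anchoring and other chain genes, with none among the 3 short network and 2 multiplexin genes.

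Of the 13 higher genes, 11 (84.6%) had a wildtype mean below 8.40, against 17 of all 44 collagens (38.6%). The same was true of 57.7% of all genes called higher and 49.4% of all genes tested; being called higher itself selects for low wildtype values, and the difference between these shares was not tested. Among the 18 collagens with a wildtype mean of at least 12, only Col5a3 was higher in loss tumors. The share of all genes at that level called higher was not counted, so this is not read as a trait of collagens. Without loss tumor 3, 13 collagens were higher, 10 of them shared with the full comparison, and 1 was lower, against 12.5% and 14.4% of all genes. Centring each tumor on 15 housekeeping genes, 9 of which fell in loss tumors, moved the median difference of all genes to 0.40; under it 22 collagens were higher and 1 lower, and of all genes 32.7% were higher and 8.2% lower. With 1 averaged value per animal number, 12 collagens were higher and 0 lower, against 10.2% and 10.2% of all genes. Col11a2, Col13a1, Col23a1, Col26a1, Col4a3, Col4a4, Col6a5, Col9a2 and Col9a3 passed the threshold in every alternative they entered, with adjusted p at most 0.0311 (limma). Of these, only Col23a1 entered the fit that left out genes below the median mean, so that fit did not test the other calls.

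**Figure D1:**
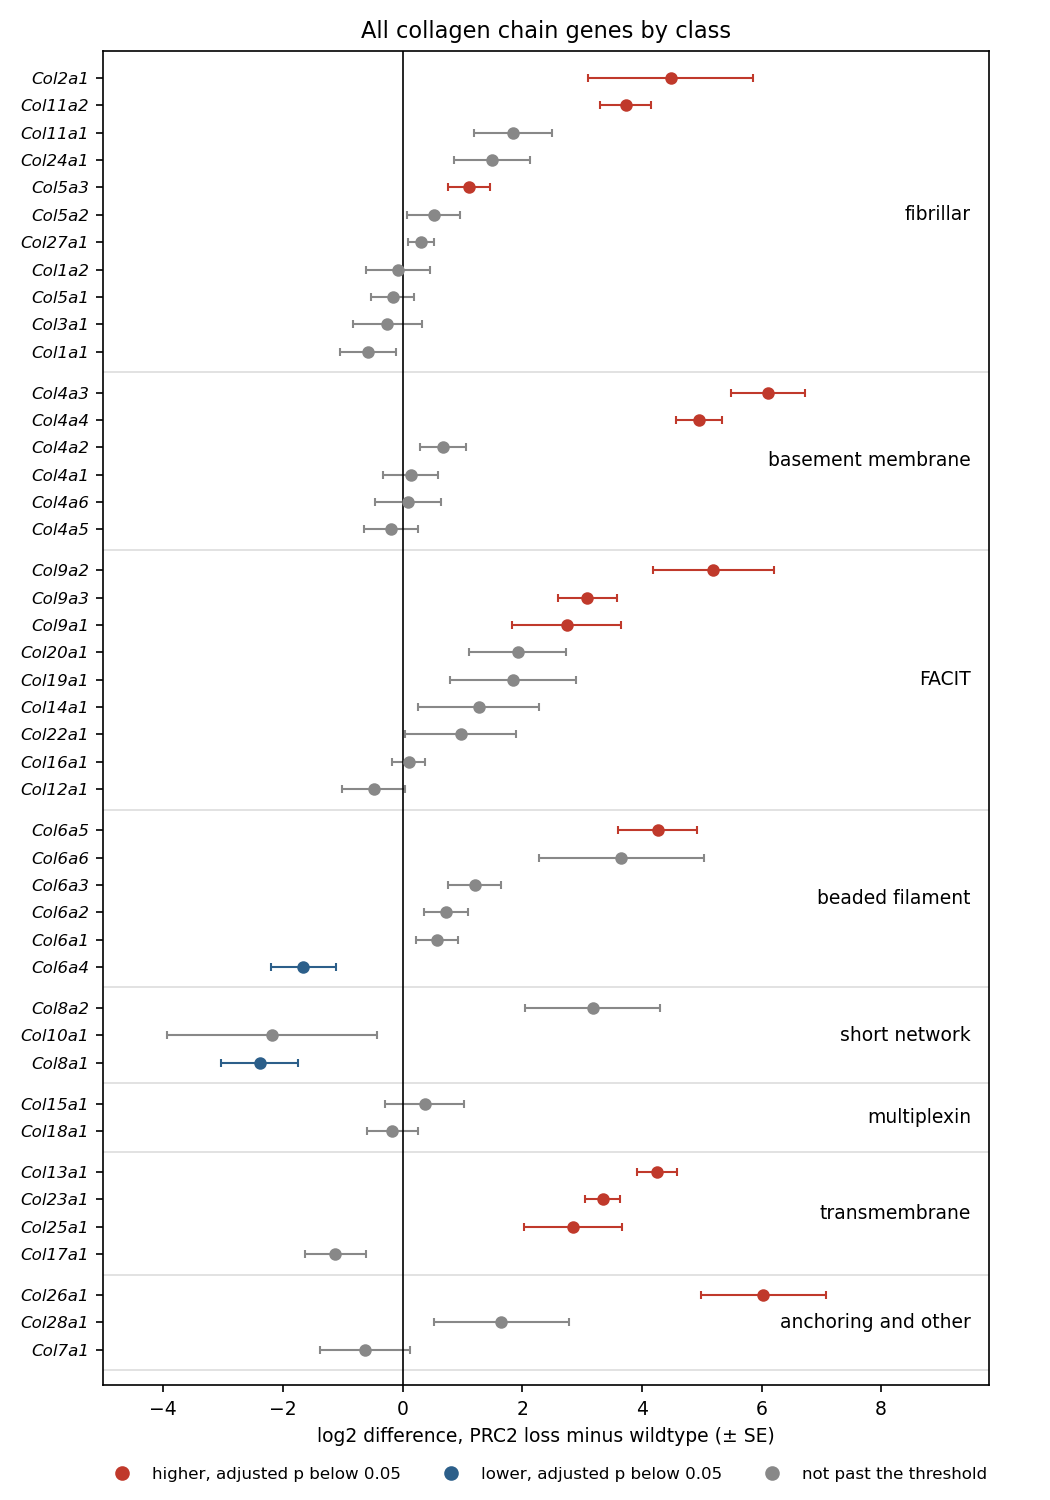
Log2 difference, PRC2 loss minus wildtype, for all 44 collagen chain genes by class, with bars for 1 standard error (limma, 3 loss and 5 wildtype tumors) and color for the call. The 13 higher genes reach differences up to 6.10, while Col8a1 and Col6a4 are the 2 lower genes.

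Among the fibrillar collagens, the major fibril formers did not pass the test, and Col11a2, Col2a1 and Col5a3 were higher in PRC2 loss tumors. Col1a1 and Col1a2, on chr11:94936224-94953042, plus strand and chr6:4504814-4541544, plus strand, encode the chains of type I collagen. Col1a1 had log2 values of 17.02, 17.14 and 15.34 in PRC2 loss tumors 1 to 3, against 17.59, 17.02, 17.14, 17.02 and 16.61 in wildtype tumors 1 to 5. Col1a2 had log2 values of 18.13, 18.13 and 16.26 in PRC2 loss tumors 1 to 3, against 17.74, 17.74, 18.13, 17.14 and 17.14 in wildtype tumors 1 to 5. Both genes were lowest in loss tumor 3, and the other loss tumors lay within or near the wildtype range. The log2 differences were -0.58 (SE 0.464) for Col1a1 and -0.07 (SE 0.530) for Col1a2, with limma adjusted p of 0.368 and 0.923. Several tumors share a value exactly, since quantile normalization gives genes of equal rank equal values.

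Col3a1 (chr1:45311538-45349706, plus strand) encodes the only chain of type III collagen, which forms fibrils together with type I. Col3a1 stood at log2 values of 18.76, 18.45 and 16.84 in loss tumors 1 to 3, against 18.76, 18.13, 18.76, 17.59 and 18.13 in wildtype tumors 1 to 5. Its groups overlapped, and its rank among all genes was 1, 2 and 10 in loss tumors 1 to 3 and between 1 and 5 in the wildtype tumors. The difference was -0.26 (SE 0.575, limma adjusted p = 0.747). Without loss tumor 3 the signs of Col1a1, Col1a2 and Col3a1 all turned, to 0.0049, 0.55 and 0.33, none past the threshold.

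Col11a2 (chr17:34039437-34066685, plus strand) encodes a chain of type XI collagen, which lies in the core of type II fibrils in cartilage. Col11a2 stood at log2 values of 10.17, 10.14 and 9.03 in loss tumors 1 to 3, against 6.31, 6.65, 5.81, 5.15 and 6.31 in wildtype tumors 1 to 5. Every loss tumor lay above every wildtype tumor, with a gap of 2.38 log2 units. The log2 difference was 3.73 (SE 0.423), 13.3-fold, with a limma adjusted p of 0.000623. Col11a1, encoding its partner chain, had log2 values of 13.31, 13.37 and 11.51 in loss tumors 1 to 3 and 12.61, 10.76, 10.75, 9.78 and 10.53 in wildtype tumors 1 to 5. The lowest loss tumor for Col11a1 lay below the highest wildtype tumor, and its difference of 1.84 did not pass (adjusted p = 0.057, limma); it passed in 6 of 19 alternatives, among them those without loss tumor 3 (adjusted p = 0.0346) and without wildtype tumor 1 (0.0119), in a range of 0.0119 to 0.188.

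Col2a1 (chr15:97975602-98004695, minus strand) encodes the chain of type II collagen, the main fibril of cartilage. Col2a1 had log2 values of 8.35, 10.20 and 7.05 in PRC2 loss tumors 1 to 3, against 0, 5.81, 3.78, 5.82 and 4.83 in wildtype tumors 1 to 5. Loss tumor 2 was highest, every loss tumor lay above every wildtype tumor, and wildtype tumor 1 was listed at 0. Col2a1 rose by a log2 difference of 4.48 (SE 1.38, limma adjusted p = 0.0345). That call was lost without wildtype tumor 3 (adjusted p = 0.0643), without loss tumor 1, 2 or 3 (0.0895, 0.134 and 0.0521) and with animal number as a random block (0.100); over all alternatives adjusted p ran from 0.00973 to 0.134.

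Col5a3 (chr9:20770050-20815067, minus strand) encodes a chain of type V collagen, a minor fibril component that is known from peripheral nerve. Col5a3 had log2 values of 13.86, 13.66 and 13.29 in PRC2 loss tumors 1 to 3, against 12.91, 12.09, 12.54, 11.67 and 13.25 in wildtype tumors 1 to 5. The lowest loss tumor lay 0.045 log2 units above wildtype tumor 5. The rise was 1.11 (SE 0.345), 2.16-fold, with a limma adjusted p of 0.0358, and it was lost in 8 of 19 alternatives, among them each fit without a loss tumor (0.122, 0.104 and 0.0596 without loss tumors 1, 2 and 3), the fits without wildtype tumor 2 or 3 (0.0617 and 0.0621) and averaging by animal number (0.101), over a range of 0.00914 to 0.122. The other type V chains, Col5a1 and Col5a2, had differences of -0.17 and 0.52 (adjusted p = 0.732 and 0.394). The remaining fibrillar genes, Col24a1 and Col27a1, had differences of 1.49 and 0.31 and did not pass (adjusted p = 0.0978 and 0.305).

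Within the type IV family, the Col4a3 and Col4a4 genes were higher in every loss tumor while the 4 other genes did not pass the test. Col4a3 (chr1:82586921-82722059, plus strand) encodes a chain known from the basement membrane of the kidney glomerulus, lung, cochlea and eye. Col4a3 stood at log2 values of 9.76, 8.70 and 10.11 in loss tumors 1 to 3, against 3.55, 2.56, 2.80, 3.28 and 4.92 in wildtype tumors 1 to 5. Loss tumor 3, lowest for most collagens, was the highest tumor for Col4a3, and the groups stood 3.78 log2 units apart. Its difference, 6.10 (SE 0.619), was the highest of the 44, 68.7-fold, with a limma adjusted p of 0.000399.

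Col4a4 (chr1:82448423-82586849, minus strand) encodes the chain that assembles with those of Col4a3 and Col4a5. Col4a4 stood at log2 values of 10.33, 8.90 and 9.91 in loss tumors 1 to 3, against 4.57, 4.74, 4.69, 5.15 and 4.65 in wildtype tumors 1 to 5. The wildtype tumors lay within 0.58 log2 units of each other, and the lowest loss tumor was 3.75 above the highest of them. The log2 difference was 4.95 (SE 0.383), 31.0-fold, with a limma adjusted p of 0.000148. The starts of Col4a4 and Col4a3 lie on opposite strands with 71 bases between them, the stretch printed first above. Per kilobase of exon, Col4a3 and Col4a4 had mean log2 levels of 6.21 and 6.31 in loss tumors and 0.10 and 1.35 in wildtype tumors.

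Col4a1 and Col4a2, on chr8:11198423-11312826, minus strand and chr8:11312805-11449287, plus strand, encode the chains of the type IV collagen found in nearly all basement membranes, and their annotated starts overlap by 22 bases. Col4a1 had log2 values of 16.14, 15.60 and 14.21 in PRC2 loss tumors 1 to 3, against 15.38, 15.32, 15.66, 14.30 and 15.27 in wildtype tumors 1 to 5. Col4a2 had log2 values of 15.66, 15.78 and 14.36 in PRC2 loss tumors 1 to 3, against 14.63, 14.75, 15.05, 13.80 and 14.72 in wildtype tumors 1 to 5. Loss tumor 3 was the lowest loss tumor for both genes, and the groups overlapped. The differences were 0.13 (SE 0.464) for Col4a1 and 0.68 (SE 0.391) for Col4a2, with limma adjusted p of 0.837 and 0.213; that of Col4a2 was 0.0442 without loss tumor 3, within a range of 0.0442 to 0.525 over all alternatives. The X-linked pair Col4a5 and Col4a6, whose starts lie 1308 bases apart on opposite strands, had differences of -0.20 and 0.09 (adjusted p = 0.749 and 0.91).

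**Figure D2:**
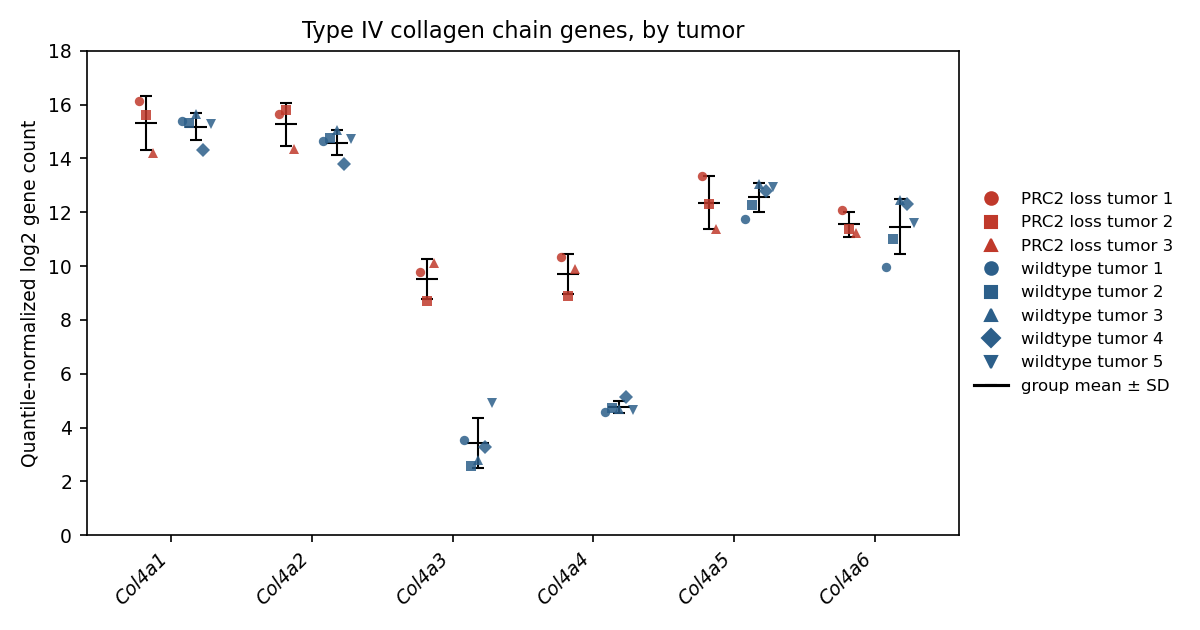
Deposited log2 values of the 6 type IV collagen genes, 1 point per tumor, PRC2 loss left of wildtype, with group means and SD bars. Col4a3 and Col4a4 separate the groups without overlap, and the values of the other 4 genes overlap.

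Markers of cell types that lie on basement membranes were counted beside these genes. Over all genes tested, 16% were higher and 19.6% lower in the full comparison. In the alternatives given below, 9.29% to 14.4% of all genes were higher. Of 8 perineurial markers, 6 were higher and 0 lower, or 3 higher without loss tumor 3, with a summed level (log2 of the summed linear values) of 15.39 to 15.74 in loss tumors and 12.83 to 13.68 in wildtype tumors. Of 10 endothelial markers, 8 were higher and 0 lower, with summed levels of 15.21 to 16.05 in loss tumors and 13.38 to 14.21 in wildtype tumors. Of 10 Schwann cell markers, 6 were higher and 0 lower (16.72 to 17.39 in loss tumors, 10.52 to 14.75 in wildtype tumors). That count was 2 without loss tumor 1 and with 1 averaged value per animal number, and 3 without loss tumor 2, loss tumor 3 or wildtype tumor 4 and in the replicate block. In the full comparison, all 10 markers of myelinating Schwann cells were higher (16.75 to 17.71 in loss tumors, 12.33 to 13.45 in wildtype tumors). No perineurial, endothelial or Schwann marker was at 0 throughout a group. The part of these cell types in the collagen differences was not tested.

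Among the FACIT collagens, all 3 genes of type IX collagen were higher in PRC2 loss tumors and the 6 other measured genes did not pass the test. Type IX collagen coats type II fibrils in cartilage. Col9a2 stood at log2 values of 9.03, 12.14 and 8.22 in loss tumors 1 to 3, against 4.45, 5.75, 5.19, 2.45 and 5.18 in wildtype tumors 1 to 5. Loss tumor 2 was far above the other loss tumors, and the groups did not overlap. Col9a2 (chr4:121039385-121055322, plus strand) rose by 5.20 on the log2 scale (SE 1.02), 36.7-fold, with a limma adjusted p of 0.00569.

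Col9a3 (chr2:180597790-180622189, plus strand) showed the same separation with less spread. Col9a3 stood at log2 values of 9.77, 10.24 and 8.64 in loss tumors 1 to 3, against 6.97, 7.07, 6.56, 6.38 and 5.32 in wildtype tumors 1 to 5. The rise was 3.09 (SE 0.494), 8.52-fold, with a limma adjusted p of 0.00234. Col9a1 was low in both groups, with log2 values of 3.27 to 5.53 in loss tumors and 0 to 3.11 in wildtype tumors, 2 of which were listed at 0. Its difference of 2.74 passed narrowly (limma adjusted p = 0.0458) and was lost in 11 of 18 alternatives, including every fit without a loss tumor and those without wildtype tumor 3, 4 or 5 (range 0.0108 to 0.167); with a pseudocount of 16 it was 0.87.

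Col12a1, Col14a1 and Col16a1, FACIT genes of fibrous tissue, had differences of -0.48, 1.27 and 0.10 with group means at or above 11.87. Col20a1, Col19a1 and Col22a1 had 1.92, 1.85 and 0.97. The lowest limma adjusted p among the 6 was that of Col20a1, 0.0966.

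The genes of types II, IX and XI are all known from cartilage, and markers of chondrocytes, the cells of cartilage, were counted beside them. Of 10 chondrocyte markers, Cnmd, Hapln1 and Cytl1 were higher, 0 were lower and 7 did not pass, against 16% higher and 19.6% lower over all genes, and the summed level was 10.71 to 14.16 in loss tumors and 10.32 to 11.85 in wildtype tumors. Acan, encoding the main cartilage proteoglycan, averaged 5.91 in loss tumors and 5.15 in wildtype tumors (limma adjusted p = 0.577). Sox9, the transcription factor of the chondrocyte lineage, averaged 9.61 in loss tumors and 10.70 in wildtype tumors (adjusted p = 0.216). Matn1, Snorc and Ucma were near 0, with means of 0.11, 0.33 and 0.22 in loss tumors and 1.28, 0.78 and 0.72 in wildtype tumors. The part of chondrocytes in the collagen differences was not tested.

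Among the genes of type VI collagen, which forms beaded filaments around cells and nerve fascicles, Col6a5 was higher and Col6a4 lower in PRC2 loss tumors. Col6a5 had log2 values of 11.38, 11.30 and 9.86 in PRC2 loss tumors 1 to 3, against 7.56, 7.51, 6.82, 6.20 and 4.83 in wildtype tumors 1 to 5. All loss tumors lay above all wildtype tumors, with loss tumor 3 lowest of its group. Col6a5 (chr9:105856078-105960643, minus strand) rose by 4.26 (SE 0.663), 19.2-fold, with a limma adjusted p of 0.00211. Col6a4 (chr9:105989454-106096783, minus strand), its neighbor on chromosome 9, had log2 values of 5.40, 6.64 and 7.50 in loss tumors 1 to 3 and 8.08, 7.05, 8.43, 8.52 and 8.80 in wildtype tumors 1 to 5. Loss tumor 3 lay above wildtype tumor 2, so the groups overlapped, and the difference of -1.66 (SE 0.545) passed narrowly (limma adjusted p = 0.0437). It was lost in 12 of 18 alternatives, with adjusted p of 0.167 with the replicate number as a block, 0.15 without loss tumor 1, 0.0991 without loss tumor 2 and 0.0709, 0.0847, 0.0853 and 0.0856 without wildtype tumors 1, 3, 4 and 5 (range 0.013 to 0.167).

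Col6a6, the third gene of that chromosome 9 cluster, had log2 values of 7.63, 7.81 and 8.45 in loss tumors 1 to 3 and 8.03, 5.66, 4.16, 1.97 and 1.70 in wildtype tumors 1 to 5. Its wildtype values spread over 6.32 log2 units, with wildtype tumor 1 inside the loss range, and its difference of 3.66 did not pass (limma adjusted p = 0.0696). The abundant type VI genes lay much higher. Col6a1 (chr10:76708792-76726168, minus strand) encodes a chain of the main type VI trimer. Col6a1 had log2 values of 15.72, 16.02 and 15.12 in PRC2 loss tumors 1 to 3, against 15.64, 15.00, 15.29, 15.09 and 14.20 in wildtype tumors 1 to 5. The groups overlapped, with a difference of 0.58 (SE 0.345, limma adjusted p = 0.23). Col6a2 and Col6a3, encoding the other chains of that trimer, had differences of 0.72 and 1.20 (adjusted p = 0.162 and 0.0659), and Col6a3 passed without loss tumor 3 (0.0316), with array weights (0.0411), with housekeeping centring (0.0193) and without wildtype tumor 3 (0.0443), over a range of 0.0193 to 0.235.

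Type VIII collagen, a short network collagen of vessel walls and of the corneal endothelium, has chains encoded by Col8a1 and Col8a2, and these genes differed in opposite directions. Col8a1 stood at log2 values of 10.46, 12.10 and 11.02 in loss tumors 1 to 3, against 14.69, 14.69, 12.39, 12.56 and 13.57 in wildtype tumors 1 to 5. Every loss tumor lay below every wildtype tumor, and Col8a1 (chr16:57624258-57754737, minus strand) fell by 2.39 on the log2 scale in loss tumors (SE 0.640), 5.23-fold, with a limma adjusted p of 0.0206. The call was lost without loss tumor 1 (adjusted p = 0.086), without loss tumor 3 (0.0715) and with 1 averaged value per animal number (0.0593), in a range of 0.0158 to 0.086. Col8a2 stood at log2 values of 12.51, 12.89 and 12.65 in loss tumors 1 to 3, against 11.52, 12.14, 8.27, 6.91 and 8.70 in wildtype tumors 1 to 5. All loss tumors lay above all wildtype tumors, but the wildtype tumors spread over 5.23 log2 units, with tumors 1 and 2 close to the loss tumors. The difference of 3.18 (SE 1.13) for Col8a2 (chr4:126286793-126314330, plus strand) did not pass (limma adjusted p = 0.0576); it passed without wildtype tumor 1 (0.0375) or 2 (0.0165), with array weights (0.0175), with housekeeping centring (0.0281) and with low genes left out (0.0477), in a range of 0.0165 to 0.15.

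Col8a1 minus Col8a2 within each tumor, a difference of log2 values in which any scaling of a whole tumor cancels, was -2.05, -0.79 and -1.63 in loss tumors 1 to 3 and 3.17, 2.55, 4.12, 5.64 and 4.87 in wildtype tumors 1 to 5. Col8a2 thus had the higher value in every loss tumor and Col8a1 in every wildtype tumor. Quantile normalization works by rank and is not such a scaling, so its effect on genes at unlike levels need not cancel. Col10a1, encoding the network collagen of hypertrophic cartilage, had log2 values of 3.89, 9.41 and 1.97 in loss tumors 1 to 3 and 10.56, 8.23, 6.11, 5.72 and 5.77 in wildtype tumors 1 to 5. Loss tumor 2 stood far above the other loss tumors, whose range was 7.44 log2 units with it, and the difference of -2.19 did not pass (limma adjusted p = 0.366).

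The other pairs of chains that assemble together were compared in the same way, as a description with no test. Col4a1 minus Col4a2 was 0.48, -0.18 and -0.15 in loss tumors and between 0.50 and 0.75 in wildtype tumors. Col5a1 minus Col5a2 was between -1.68 and -1.19 in loss tumors and between -1.14 and -0.24 in wildtype tumors. Col11a1 minus Col11a2 was between 2.48 and 3.23 in loss tumors and between 4.11 and 6.30 in wildtype tumors. In each of these pairs the loss tumors lay below the wildtype tumors, by a narrow gap for the type IV and type V pairs. Col1a1 minus Col1a2, Col4a3 minus Col4a4, Col4a5 minus Col4a6, Col6a1 minus Col6a2 and Col9a1 minus Col9a2 overlapped between the groups; for Col6a1 minus Col6a2 all 8 tumors lay between 0.71 and 1.29.

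**Figure D3:**
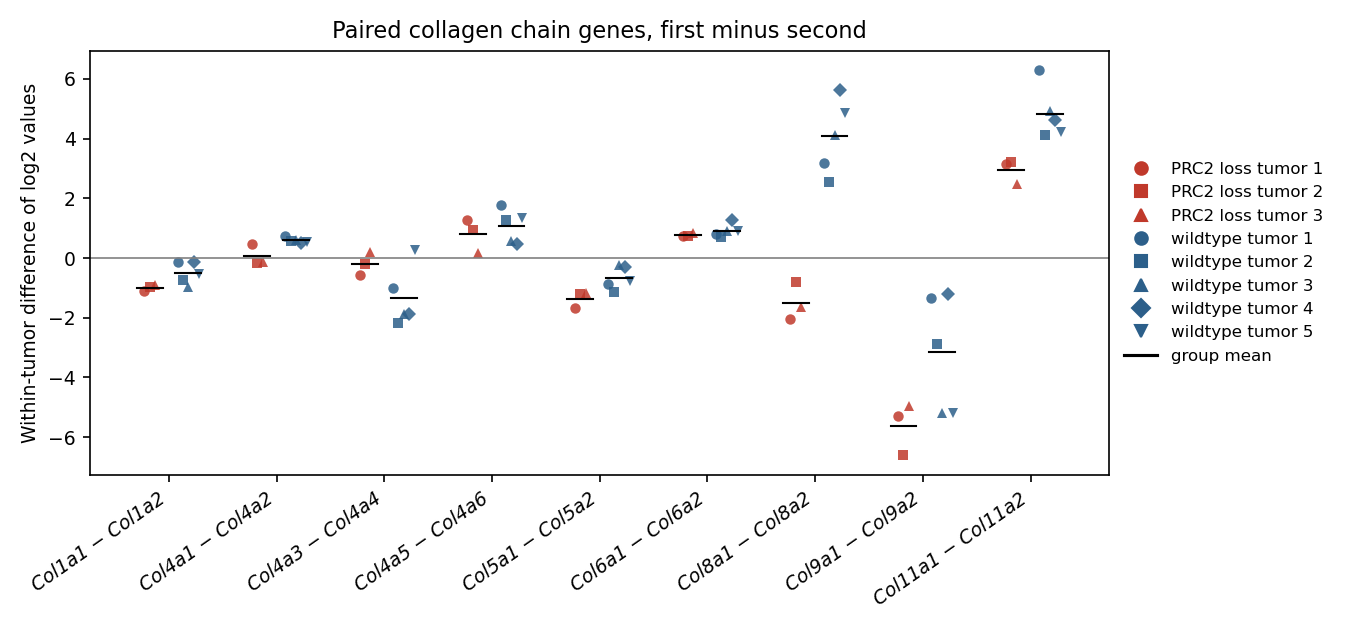
Within-tumor difference of the log2 values of chains that assemble together, first named gene minus second, 1 point per tumor, PRC2 loss left of wildtype, with lines at the group means. Col8a1 minus Col8a2 is negative in the 3 loss tumors and positive in the 5 wildtype tumors, while Col6a1 minus Col6a2 lies between 0.71 and 1.29 throughout.

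The transmembrane collagens had the highest share of called genes, 3 of 4. Col13a1 (chr10:61838236-61979108, minus strand) encodes a collagen of cell adhesion sites and of the neuromuscular junction. Col13a1 had log2 values of 10.05, 9.51 and 9.51 in PRC2 loss tumors 1 to 3, against 4.81, 5.87, 5.86, 5.23 and 5.44 in wildtype tumors 1 to 5. The loss tumors lay within 0.53 log2 units of each other, with a gap of 3.64 to the wildtype tumors. Col13a1 rose by 4.25 (SE 0.338), 19.0-fold, with a limma adjusted p of 0.000169.

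Col23a1 (chr11:51289920-51583918, plus strand) encodes a transmembrane collagen that is also shed from the cell surface. Col23a1 had log2 values of 12.82, 12.60 and 12.57 in PRC2 loss tumors 1 to 3, against 9.87, 8.67, 9.90, 9.01 and 9.13 in wildtype tumors 1 to 5. Its loss tumors differed by 0.26 log2 units at most, and tumor 3 was close to the others. The rise was 3.35 (SE 0.293), 10.2-fold, with a limma adjusted p of 0.000238. Per kilobase of exon, Col23a1 was the most abundant transmembrane collagen gene, with mean log2 levels of 10.14 in loss tumors and 6.80 in wildtype tumors.

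Col25a1 (chr3:130131501-130599877, plus strand) encodes a collagen of neurons and developing muscle that is also found in amyloid plaques. Col25a1 stood at log2 values of 9.29, 9.28 and 6.96 in loss tumors 1 to 3, against 4.24, 4.96, 5.72, 5.86 and 7.50 in wildtype tumors 1 to 5. Loss tumor 3 lay below wildtype tumor 5, so the groups overlapped. The rise was 2.85 (SE 0.817), 7.23-fold (limma adjusted p = 0.0265), and it was lost without loss tumor 1 (adjusted p = 0.103), without loss tumor 2 (0.105), with animal numbers averaged (0.0973) or as a random block (0.0547) and with the replicate block (0.0535), in a range of 0.00927 to 0.105. Col17a1, the hemidesmosome collagen of epithelia, had a difference of -1.12 that did not pass (adjusted p = 0.124). Among 10 keratinocyte markers, Krt15, Krt1 and Dsp were higher and 0 were lower, against 16% and 19.6% of all genes. Dsg3 and Dsc3 were listed at 0 in all loss tumors and Krt1 in all wildtype tumors. The summed level was 8.82 to 9.60 in loss tumors and 7.21 to 9.17 in wildtype tumors.

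Col26a1 (chr5:136741759-136883209, minus strand), encoding a collagen first described in testis and ovary, was among the genes with the largest differences. Col26a1 stood at log2 values of 11.54, 11.40 and 8.79 in loss tumors 1 to 3, against 7.31, 2.87, 4.85, 3.80 and 3.94 in wildtype tumors 1 to 5. Loss tumor 3 was the lowest loss tumor, and wildtype tumor 1 the highest wildtype tumor, 1.48 log2 units below it. Col26a1 rose by 6.03 (SE 1.05), 65.1-fold, with a limma adjusted p of 0.00339. Col28a1, encoding a collagen found at nodes of peripheral nerve, had log2 values of 11.03, 12.29 and 10.86 in loss tumors 1 to 3 and 11.69, 11.37, 7.73, 7.10 and 10.84 in wildtype tumors 1 to 5. Wildtype tumors 3 and 4 were low, wildtype tumors 1 and 2 lay inside the loss range, and the difference of 1.65 did not pass (limma adjusted p = 0.293). Col7a1, the anchoring fibril collagen of skin, had a difference of -0.63 (adjusted p = 0.554). The multiplexins Col15a1 and Col18a1, encoding collagens attached to basement membranes, had differences of 0.37 and -0.17 (adjusted p = 0.681 and 0.774).

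**Figure D4:**
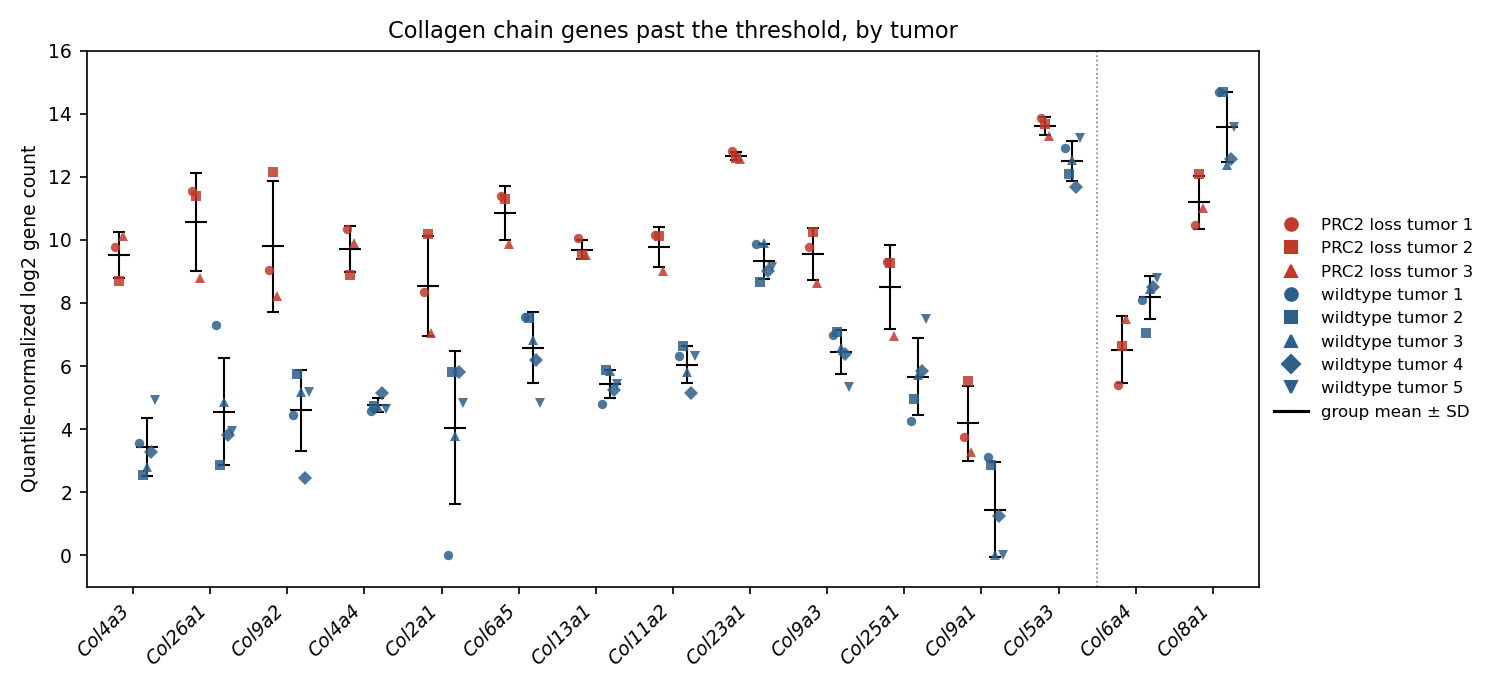
Deposited log2 values of the 15 collagen chain genes that passed the test, 1 point per tumor, PRC2 loss left of wildtype, with group means and SD bars. Loss tumors lie above wildtype tumors without overlap for 12 genes and below for Col8a1, and the groups overlap for Col25a1 and Col6a4.

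Levels between genes were compared per kilobase of exon. By the mean over all 8 tumors, the order began with Col3a1 (log2 level 14.88), Col1a1 (14.14), Col1a2 (13.92), Col6a1 (13.13), Col4a1 (12.34), Col5a2 (12.13) and Col4a2 (12.12). Col1a1 and Col1a2 lay within their spread over tumors, as did Col4a1, Col5a2 and Col4a2. At the low end stood Col22a1 (0.00), Col19a1 (0.04) and Col9a1 (0.13). Of the summed linear values per kilobase of all 44 genes, Col1a1, Col1a2 and Col3a1 made up 52.8%, 52.0% and 40.2% in loss tumors 1 to 3 and 58.0% to 63.4% in wildtype tumors. The genes of type VI collagen made up 15.7% to 22.4% in loss tumors and 8.44% to 14.0% in wildtype tumors, and the transmembrane genes 0.826% to 2.01% in loss tumors and 0.0792% to 0.145% in wildtype tumors. None of these 3 shares overlapped between the groups, whereas the share of the basement membrane genes did, at 10.4% to 11.8% in loss tumors and 6.81% to 11.8% in wildtype tumors. Of the 4 transmembrane genes 3 were called higher, so the separation of their share is not independent of those calls. Shares of a total move together, and the share of the 13 higher genes, 3.09% to 5.48% in loss tumors and 0.713% to 1.73% in wildtype tumors, follows from their selection.

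Within the PRC2 loss group, loss tumor 3 had the lowest value for 34 of 44 collagens (77.3%), against 32.6% of all genes. Loss tumors 1 and 2 were each lowest for 5 collagens (11.4%), against 32.4% of all genes for tumor 1. The median of loss tumor 3 minus the mean of loss tumors 1 and 2 was -1.17 over the collagens and 0 over all genes. The deviation was -1.77 for Col3a1, -1.74 for Col1a1 and -4.68 for Col10a1, and it was -0.15 for Col23a1 and -0.02 for Col27a1. A few genes were highest in tumor 3 or above the mean of the others: Col19a1 by 3.51, Col6a4 by 1.48, Col4a3 by 0.88, Col6a6 by 0.73, Col4a4 by 0.29 and Col17a1 by 0.27.

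Loss tumors 2 and 3 carried the same animal number, so the low values of tumor 3 were not shared by the other tumor of that number. Loss tumor 3 also had the highest summed level of pericyte and smooth muscle markers, 17.61 against 15.06 in loss tumor 1 and 15.63 in loss tumor 2, of which 3 of 10 were higher in loss tumors overall (12.64 to 15.16 in wildtype tumors). Its summed level of adipocyte markers was 14.71, against 10.88 in loss tumor 1 and 12.13 in loss tumor 2; 0 of 10 adipocyte markers passed in either direction (10.26 to 15.27 in wildtype tumors). Their part in the low collagen values was not tested. Over all genes tested, 16% were called higher and 19.6% lower, 35.7% in either direction.

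**Figure D5:**
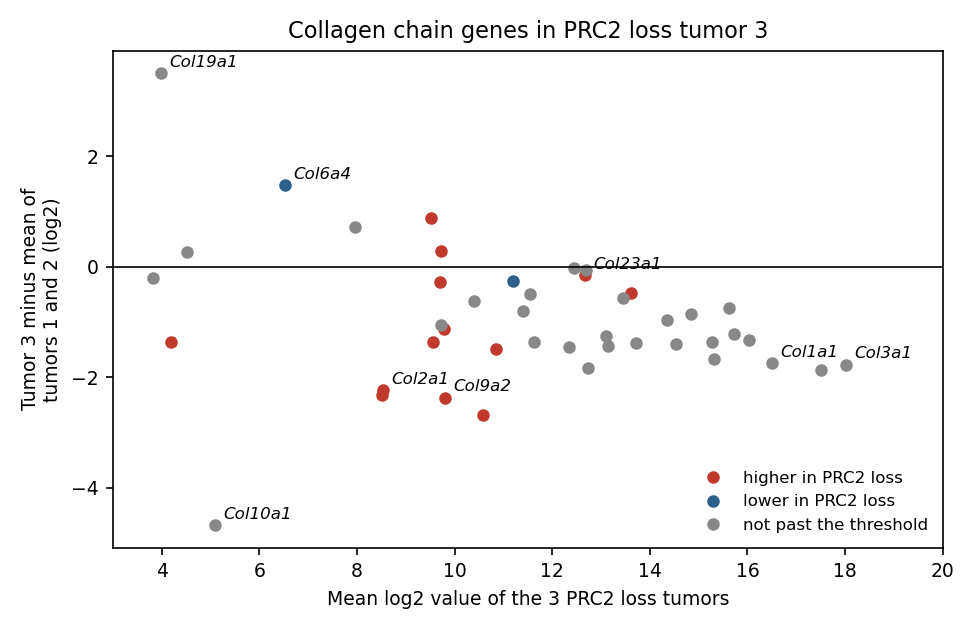
Loss tumor 3 minus the mean of loss tumors 1 and 2 (log2) for each of the 44 collagen chain genes, against the mean log2 value of the 3 loss tumors, colored by the call in PRC2 loss against wildtype. Most genes lie below 0, with a median of -1.17, and Col19a1, Col6a4 and Col4a3 lie above it.

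Within the wildtype group, tumors 1 and 2, which share an animal number, both lay above tumors 3 to 5 for 14 of 44 collagens (31.8%), against 16.9% of all genes, and both lay below them for 4 (9.09%), against 22.8%. Skeletal muscle markers, 0 of 10 of which passed in either direction, summed to 16.46 and 16.21 in wildtype tumors 1 and 2 and to between 8.28 and 9.21 in wildtype tumors 3 to 5; the loss tumors lay between 10.93 and 13.22. Schwann cell markers summed to 14.75 in each of wildtype tumors 1 and 2 and to between 10.52 and 12.07 in the others. Their part in the collagen values was not tested. Over all genes tested, 35.7% passed in either direction between loss and wildtype tumors. The median SD of a collagen gene was 0.80 in loss tumors and 0.78 in wildtype tumors, against 0.32 and 0.43 over all genes.

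Markers of matrix-producing cells were counted beside these results. Over all genes tested, 16% were higher and 19.6% lower in the full comparison. In the alternatives given below, 10.2% to 32.7% of all genes were higher and 8.2% to 23.8% lower. Of 10 fibroblast markers, Dpep1 and Gsn were higher and 0 lower, with summed levels of 17.37 to 18.22 in loss tumors and 15.95 to 16.80 in wildtype tumors. Without loss tumor 3 the counts were 2 higher and 1 lower, with array weights 3 and 1, and with housekeeping centring 4 and 0. The median difference of these markers was 0.70, or 0.08 without loss tumor 3. Of 10 osteoblast markers, Sp7 was higher and Dmp1 lower, or 2 higher without wildtype tumor 1 or 2 and 2 lower without wildtype tumor 1, with summed levels of 13.50 to 14.75 in loss tumors and 14.05 to 16.13 in wildtype tumors. Of 8 tenocyte markers, Tnmd and Fmod were higher and Scx and Tnc lower, or 1 higher and 1 lower without loss tumor 1 or loss tumor 3 and 1 higher without loss tumor 2 or wildtype tumor 3 or 4, with 14.93 to 15.61 in loss tumors and 13.55 to 15.43 in wildtype tumors. Of 10 macrophage markers, 7 were lower (4 with housekeeping centring, without loss tumor 1 and with 1 averaged value per animal number) and Cd163 was higher, with 14.95 to 15.37 in loss tumors and 15.66 to 16.77 in wildtype tumors. None of these markers was at 0 throughout a group, and their part in the collagen differences was not tested.

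Genes that act on collagen after transcription were taken from lists, and the lists differed in direction. Over all genes tested, 16% were higher and 19.6% lower, or 32.7% and 8.2% with housekeeping centring. Without 1 loss tumor these shares were 12.4% to 12.5% and 14.4% to 14.6%. With 1 averaged value per animal number they were 10.2% and 10.2%. Over the 4 lists of chain modification, secretion, propeptide cleavage and receptors the median difference was between -0.28 and -0.08 and turned positive, 0.25 to 0.44, with housekeeping centring. Of 19 chain modification and folding genes, 2 were higher and 6 lower in loss tumors, or 5 and 2 with housekeeping centring. Without loss tumor 3 the counts were 3 higher and 3 lower, without loss tumor 1 they were 1 and 4, without loss tumor 2 they were 1 and 6, and with 1 averaged value per animal number they were 1 and 2. Colgalt2, a collagen galactosyltransferase, averaged 10.61 in loss tumors and 6.55 in wildtype tumors and rose 16.7-fold (limma adjusted p = 0.000161). Plod2, the lysyl hydroxylase of telopeptides, averaged 10.16 in loss tumors and 12.29 in wildtype tumors and fell 4.39-fold (adjusted p = 0.000768). P4ha1, a prolyl hydroxylase subunit, averaged 11.01 in loss tumors and 12.39 in wildtype tumors and fell 2.61-fold (adjusted p = 0.000745). The calls of P4ha1 and Plod2 held in all 19 alternatives. That of Colgalt2 held in the 18 it entered, which exclude the fit with low genes left out. The call of Plod3, a lysyl hydroxylase with a difference of -0.81 (limma adjusted p = 0.00449), was lost with housekeeping centring (0.15). It was also lost with 1 averaged value per animal number (0.05), in a range of 0.00274 to 0.15.

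Of 7 secretion genes, Mia3, Creb3l1 and Klhl12 were higher and 0 lower, against 16% and 19.6% of all genes. Klhl12, an adaptor of the ubiquitin ligase that enlarges secretory vesicles for procollagen, rose by 0.91 (limma adjusted p = 0.0019). Mia3, the procollagen export receptor, rose by 0.70 (adjusted p = 0.00415), with 0.0591 in the replicate block (range 0.000918 to 0.0591). Creb3l1, a transcription factor of collagen secretion, rose by 1.62 (adjusted p = 0.015), with 0.0555 for averaged animal numbers and 0.066 without loss tumor 1 (range 0.00544 to 0.066). Of the 9 measured propeptide cleavage genes, Adamts14, a procollagen protease, fell by 1.69 (adjusted p = 0.0164), lost without loss tumor 3 (0.0711), with animal numbers averaged (0.0543) and with the replicate block (0.134), in a range of 0.00435 to 0.134. Pcolce, an enhancer of that cleavage, rose by 0.71 (adjusted p = 0.047) and lost its call in 12 of 19 alternatives, among them each fit without a loss tumor and those without wildtype tumor 1, 3, 4 or 5 (range 0.00664 to 0.153).

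Of 7 crosslinking genes, 4 were lower and 0 higher in loss tumors, and with housekeeping centring 2 were lower and 1 higher. Over all genes 19.6% were lower and 16% higher, or 8.2% and 32.7% with that centring. Loxl4 and Loxl1, lysyl oxidases, fell 9.61-fold and 3.23-fold (limma adjusted p = 0.00118 and 0.00367), and both calls held in every alternative they entered. Loxl3, also a lysyl oxidase, fell 2.38-fold (adjusted p = 0.00866), with 0.0633 under housekeeping centring and 0.0583 in the replicate block (range 0.00508 to 0.0633). Pxdn, the peroxidase that crosslinks type IV collagen, fell 2.18-fold (adjusted p = 0.0307) and lost its call in 9 of 19 alternatives, including each fit without a loss tumor and those without wildtype tumor 1 or 3 (range 0.0122 to 0.212).

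Of 12 proteoglycans and related proteins that bind fibrils, 7 were higher and 0 lower, with a median difference of 2.83. The count higher was 3 with animal numbers averaged, in the replicate block and without loss tumor 1. Of all genes, 16% were higher and 19.6% lower, and 9.29% to 12.5% were higher in those alternatives. Epyc, encoding epiphycan, a small proteoglycan of growth cartilage, had the largest difference of the list. It averaged 13.62 in loss tumors and 4.81 in wildtype tumors, 448-fold (limma adjusted p = 0.00106). Prelp, which links collagen to basement membrane, averaged 14.73 in loss tumors and 11.34 in wildtype tumors, 10.5-fold (adjusted p = 0.00515). Omd and Ogn rose by 3.40 and 3.65 (adjusted p = 0.0113 and 0.0129); without loss tumor 1 these were 0.0528 and 0.051, within ranges of 0.00548 to 0.0528 and 0.00563 to 0.0554.

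Of 11 collagen receptor genes, 1 was higher and 2 lower, against 16% and 19.6% of all genes. Itga10, the integrin subunit that pairs with the beta1 subunit to bind collagen in cartilage, averaged 10.58 in loss tumors and 7.87 in wildtype tumors, 6.55-fold (limma adjusted p = 0.00184), in every alternative past the threshold. Ddr1, a receptor tyrosine kinase for collagen, and Lair1, an inhibitory receptor of leukocytes, fell by 0.81 and 1.43 (adjusted p = 0.0225 and 0.0317). With housekeeping centring these were 0.411 and 0.111, without loss tumor 1 they were 0.0718 and 0.123, and without loss tumor 3 they were 0.0888 and 0.105, within ranges of 0.017 to 0.411 for Ddr1 and 0.0216 to 0.123 for Lair1. Lair1 was also lost without wildtype tumor 1 (0.0617) and 4 (0.0549). Itgb1, encoding the beta1 subunit itself, had a difference of -0.25 (adjusted p = 0.442).

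Promoter windows of 300 bases, 250 before and 50 after the RefSeq start, were found for 35 of the 44 genes. For the collagens, the RefSeq start nearest the GENCODE start was used. For all genes of the promoter table, the first window listed per gene was used, so the windows compared were not chosen alike. The RefSeq start used for Col25a1 lay 49344 bases from its GENCODE start. That window, with a GC box and CCAAT, is counted among the 9 higher genes below. Col12a1, Col14a1, Col1a1, Col22a1, Col26a1, Col2a1, Col4a3, Col5a2 and Col9a3 are named only. The median count of CpG dinucleotides was 16 over the 9 higher genes with a window, 8.5 over the 2 lower genes, 10 over the 24 genes that did not pass and 7 over all 27025 genes of the promoter table. The GC box GGGCGG, on either strand, was present in 6 of the 9 higher genes (66.7%), in 62.9% of the 35 collagens and in 35.9% of all genes. TATAAA was present in 2 of the 9 (22.2%), in 14.3% of the collagens and in 14.2% of all genes, and CCAAT in 22.2%, 34.3% and 37.9%. These matches describe letters in a window and were not tested against the differences in expression.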

How the data were processed

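Poly-A RNA of 8 mouse tumors was sequenced, as the labels' protocols state. Trim Galore, STAR 2.6, Partek 7.0 and mm10 are named, per the submitters' processing notes; their order was not given in the sources used here, nor were the annotation, the counting, the use of strand and any filter. Per the labels and the file header, the authors deposited quantile-normalized log2 gene counts for 20943 genes, with no library totals, so depth is unknown and counting intervals cannot be had. Whether an offset preceded the logarithm is unknown, and folds were computed as powers of 2 of the log2 differences, which would understate changes of low genes if an offset had been added.

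The PRC2 status named in each title set the groups. The titles call them biological replicates, but animal numbers are shared, so the tumors may not be independent and p-values may be too small. After 136 constant genes were left out, 20807 were tested with limma 3.58.1 in R 4.3.3 (two-sided moderated test with a variance trend on the mean, Benjamini-Hochberg adjustment, threshold 0.05), on the whole table and with no pseudocount. The procedure was tested on simulated data with independent noise in every tumor, which does not cover tumors that share an animal number. Summed marker levels and per-kilobase levels used 2 raised to the log2 value. Exon lengths and gene positions came from GENCODE M21 (mm10), in which all 44 symbols were found, and promoter windows from RefSeq (GRCm38.p6).

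The members, the gene and marker lists and the rule for named genes were chosen with earlier results of these data known. Values in every tumor were planned for called collagens with a log2 difference of at least 1 with at least 1 group mean no lower than the median over the means of all genes, and for Col1a1, Col1a2, Col3a1, Col4a1, Col4a2 and Col6a1. Other collagens shown by tumor, as partners or neighbors of these, were chosen after their values were seen. From each pathway list up to 4 genes were named by smallest p, then by highest mean. The 19 alternatives left out low genes, added a pseudocount of 1 or 16, changed the variance prior, weighted arrays, recentred tumors, averaged or blocked animal numbers (consensus correlation 0.35, rounded to the nearest 0.05), blocked replicate numbers, or left out each tumor in turn.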

Additional observations from a re-analysis of the deposited data

How the results depend on the processing

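The count of collagens higher in PRC2 loss tumors, 13, stayed between 9 and 18 in 17 of the 19 alternatives. It was 22 with housekeeping centring, where 32.7% of all genes were higher. Leaving out genes below the median mean kept 27 of the 44 collagens in the fit. Of those 27, 4 were higher, against 16.5% of all 10472 genes kept, so no excess of higher collagens was seen in that fit. The count lower, 2, was 1 with low genes left out, with a pseudocount of 16, without a variance trend, with housekeeping centring, with animal number as a random block and with the replicate block, and 0 with animal numbers averaged. Leaving out each tumor in turn gave 9 to 17 higher and 0 to 2 lower, where 12.4% to 16.5% of all genes were higher and 14.4% to 20.7% lower. None of the 15 called collagens changed sign in any alternative. Of 29 uncalled collagens, 11 passed in at least 1 alternative, and 12 changed sign in at least 1, with adjusted p of 0.394 or more where they did (limma).

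With housekeeping centring the reversed log2 differences were 0.041 for Col12a1, 0.36 for Col18a1, 0.45 for Col1a2, 0.27 for Col3a1, 0.33 for Col4a5, 0.36 for Col5a1, 0.024 for Sec24d, 0.33 for Bmp1, 0.12 for Adamts2 and 0.27 for Itgb1; this centring adds a constant to every difference by construction. Array weights gave 0.18 for Col1a2 and -0.091 for Col4a6. Averaged animal numbers gave 0.077 for Col18a1 and 0.15 for Col1a2, and the random block gave 0.019 for Col1a2. The replicate block gave -0.0099 for Col14a1, -0.23 for Col15a1, -0.17 for Col16a1, -0.13 for Col4a1 and 0.0028 for Col4a5. Over the fits that left out a tumor, differences ran from -0.016 to 0.83 for Col15a1, -0.072 to 0.29 for Col16a1, -0.50 to 0.30 for Col18a1, -0.90 to 0.0049 for Col1a1, -0.39 to 0.55 for Col1a2, -0.63 to 0.33 for Col3a1, -0.28 to 0.69 for Col4a1, -0.70 to 0.28 for Col4a5, -0.28 to 0.34 for Col4a6 and -0.35 to 0.15 for Col5a1. Apart from that centring, the cause of these changes was not tested.

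Replicate numbers 1 to 3 occur in both groups, and tumors of the same number did not deviate together (correlations of deviations over all genes of -0.155, 0.0945 and -0.0482), so the tumors share only a number. With the replicate number as a block, 11 collagens were higher and 1 lower, against 9.29% and 7.65% of all genes, and no wildtype tumor correlated best with the loss tumor of its own number. Depth is unknown, so the precision of low values cannot be given.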
